A study of Homo sapiens with 12 samples.

Results

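The protocadherins are a group of cadherin-like cell adhesion proteins, and their genes were examined in 4 groups of cells of WM1366, a human melanoma cell line with mutant NRAS. All protein-coding entries of the count table whose symbol starts with PCDH and that lie on an autosome were taken, which gave 36 of the 23497 genes of the table. Of these, 7 are non-clustered genes, 13 belong to the beta cluster and 16 to the gamma cluster, and none of the entries analysed here is an alpha gene. No gene of the table had a total under 11 counts, so members with fewer counts would be missing from these numbers. The sensitive parent cells had been kept with DMSO, the solvent. The resistant daughter cells grew in a BRAF inhibitor together with a MEK inhibitor: encorafenib and binimetinib (EB-resistant), vemurafenib and cobimetinib (VC-resistant) or dabrafenib and trametinib (DT-resistant). Each group has 3 libraries, numbered 2, 5 and 6, of polyadenylated RNA taken 72 h after seeding. Every resistant group is 1 line grown with its drugs, so resistance, the presence of the inhibitors and the history of the culture cannot be told apart. Each group's 3 libraries stem from independent experiments with 1 line, so the p-values measure the spread between experiments and not between separately derived lines.

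Protocadherins hold an extracellular row of cadherin repeats, a single membrane-spanning stretch and a cytoplasmic tail, and most bind the same protein on a neighbouring cell. The clustered genes stand in tandem on chromosome 5. In the gamma cluster, as in the alpha cluster, each variable first exon has its own promoter and is spliced to constant exons shared by the whole cluster, while the beta genes are single exons with no constant part. Neurons switch on a few of the variable exons each, through a choice of promoter that depends on DNA methylation, CTCF and cohesin, and the resulting mix of proteins serves self-recognition of neurites. The non-clustered genes, among them the delta protocadherins PCDH1, PCDH7, PCDH9, PCDH10 and PCDH18, are scattered over the genome and have their own tails. By the positions deposited with the counts (GRCh38), the 29 clustered members lay on the plus strand at chr5:141094606-141512977, a span of 418.4 kb. In the GENCODE annotation of human genes (GRCh38), all 16 gamma models shared 2181 exon bases.

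The promoters of 6 genes that the results turn on are shown here as the 250 bases before the RefSeq start (GRCh38.p14), read 5′ to 3′ on the strand of the gene. Capitals mark CGCT or its reverse complement AGCG, the core letters of a sequence element that clustered protocadherin promoters are known to share. PCDH18 (chr4:137532495-137532744, minus strand) and PCDHGC3 (chr5:141475716-141475965, plus strand) are the most abundant members of the resistant groups per kilobase of gene length. PCDHGA1 (chr5:141330264-141330513) and PCDHGA2 (chr5:141338510-141338759) are adjacent gamma genes with high counts in EB-resistant cells, and PCDHB14 (chr5:141223093-141223342) and PCDHB16 (chr5:141182137-141182386) are beta genes that moved apart there, all 4 on the plus strand.
PCDH18: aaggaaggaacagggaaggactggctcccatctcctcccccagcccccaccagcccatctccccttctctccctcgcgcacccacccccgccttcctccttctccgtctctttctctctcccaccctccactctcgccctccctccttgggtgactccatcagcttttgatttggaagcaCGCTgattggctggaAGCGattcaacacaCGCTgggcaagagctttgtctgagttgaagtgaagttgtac
PCDHGC3: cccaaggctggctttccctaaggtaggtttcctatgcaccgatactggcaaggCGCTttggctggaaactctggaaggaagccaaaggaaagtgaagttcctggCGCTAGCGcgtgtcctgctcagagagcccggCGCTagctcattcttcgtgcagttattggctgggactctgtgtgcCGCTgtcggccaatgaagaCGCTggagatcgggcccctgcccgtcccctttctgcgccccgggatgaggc
PCDHGA1: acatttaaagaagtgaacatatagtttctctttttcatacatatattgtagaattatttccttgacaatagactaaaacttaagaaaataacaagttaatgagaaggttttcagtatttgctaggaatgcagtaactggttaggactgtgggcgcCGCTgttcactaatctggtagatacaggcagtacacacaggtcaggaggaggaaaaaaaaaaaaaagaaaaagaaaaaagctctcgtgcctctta
PCDHGA2: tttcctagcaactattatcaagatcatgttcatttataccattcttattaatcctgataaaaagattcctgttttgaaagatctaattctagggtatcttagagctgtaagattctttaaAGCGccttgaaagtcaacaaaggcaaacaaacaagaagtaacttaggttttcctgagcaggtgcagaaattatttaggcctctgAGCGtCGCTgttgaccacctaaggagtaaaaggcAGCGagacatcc
PCDHB14: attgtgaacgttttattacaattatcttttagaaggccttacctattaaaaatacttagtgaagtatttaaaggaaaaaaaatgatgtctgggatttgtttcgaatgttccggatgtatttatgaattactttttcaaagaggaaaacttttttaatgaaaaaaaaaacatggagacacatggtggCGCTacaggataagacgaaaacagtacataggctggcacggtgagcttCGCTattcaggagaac
PCDHB16: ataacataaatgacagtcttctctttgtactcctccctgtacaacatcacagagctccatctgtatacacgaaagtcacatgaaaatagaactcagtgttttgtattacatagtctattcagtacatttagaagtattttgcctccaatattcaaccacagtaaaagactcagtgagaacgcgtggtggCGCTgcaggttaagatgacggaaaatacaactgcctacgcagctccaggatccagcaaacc
In these windows the CGCT core was found 6 times for PCDHGC3, 4 times for PCDHGA2, 3 times for PCDH18, 2 times for PCDHB14 and 1 time each for PCDHGA1 and PCDHB16, both strands counted. RefSeq promoter entries, which run from 250 bases before to 50 bases after a start, matched 31 of the 36 members with 34 windows. The members without one were PCDH10, PCDHB6, PCDHB11, PCDHGA12 and PCDHGC5. CGCT stood in 26 of the 27 windows of clustered members and in 7 of the 7 of non-clustered members, against 64.8% of all 35116 promoters of that length. A core motif of CTCF was found in 1 clustered window (4.0% of all promoters), and TATAAA in 3 (10.7% of all promoters). Neither TGANTCA, the AP-1 site (6.6% of all promoters), nor CACGTG, the E-box (6.3%), was found in a member's window. These matches describe letters only; no binding was measured.

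The libraries held 40491309 to 54495132 counts assigned to genes, so 1 count was worth 0.0187 to 0.0262 CPM, the count scaled to a common library size with TMM factors. All member genes together reached 25.3 to 26.9 CPM in sensitive libraries and 46.3 to 93.3 CPM in resistant ones. Of the melanocyte markers, 5 of 10 were in the table: MITF was at 47.2 to 66.4 CPM and GPR143 at 24.8 to 32.7 CPM in the group means, while PMEL, TYRP1 and DCT stayed under 1 CPM. The fibroblast markers (8 of 8 in the table) summed to 2.44 to 3.29 CPM in sensitive libraries, 132.6 to 167.0 in EB-resistant, 12.6 to 30.96 in VC-resistant and 111.0 to 217.7 in DT-resistant ones, led by LUM, PDGFRB and COL1A1; DCN was at 0 counts in all sensitive libraries and COL1A2 at 0 in all DT-resistant ones. In the group means, LUM was at 14.7 CPM in VC-resistant and 145 CPM in DT-resistant cells and gave most of both sums. FAP went the other way in these groups, from 0.80 CPM in sensitive to 0.436 and 0.548 CPM. So did PDGFRA, from 0.0706 CPM in sensitive to 0.0212 and 0.0230 CPM. Of the endothelial and leukocyte markers, KDR was at 0 in all VC-resistant and LYZ at 0 in all EB-resistant libraries. Summed levels ran from 7.87 to 15.5 CPM for the neuron markers (5 of 8 in the table), from 35.5 to 109.1 CPM for the Schwann cell and glia markers (5 of 7, of which MBP gave most) and from 1.24 to 7.38 CPM for the endothelial markers (5 of 5). The leukocyte markers (3 of 5 in the table) summed to 0.149 to 1.21 CPM, and of the keratinocyte markers only KRT10 was in the table, at 15.8 to 23.5 CPM.

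Enough counts for a test were present in 21 of the 36 members, 7 of each family. In EB-resistant against sensitive cells, 9 of the 21 rose and 4 fell (adjusted p under 0.05, edgeR quasi-likelihood F-test, Benjamini-Hochberg over 17114 genes); of all genes tested, 28.5% rose and 27.6% fell. In VC-resistant cells 5 rose and 6 fell, where 27.6% and 27.4% of all genes did so. In DT-resistant cells 8 rose and 6 fell, beside 29.8% and 29.3% of all genes. Counted in either direction, the members' shares of 61.9%, 52.4% and 66.7% lay near those of all genes, 56.1%, 55% and 59.1%. The median log2 fold change of the tested members was 0.86 for EB-resistant, 0.01 for VC-resistant and -0.44 for DT-resistant cells, where that of all genes was between -0.01 and 0. The DT-resistant median becomes -0.28 without PCDH10, which had no counts there and too few in sensitive cells for a bound. These 3 comparisons share the sensitive libraries.

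**Figure D1:**
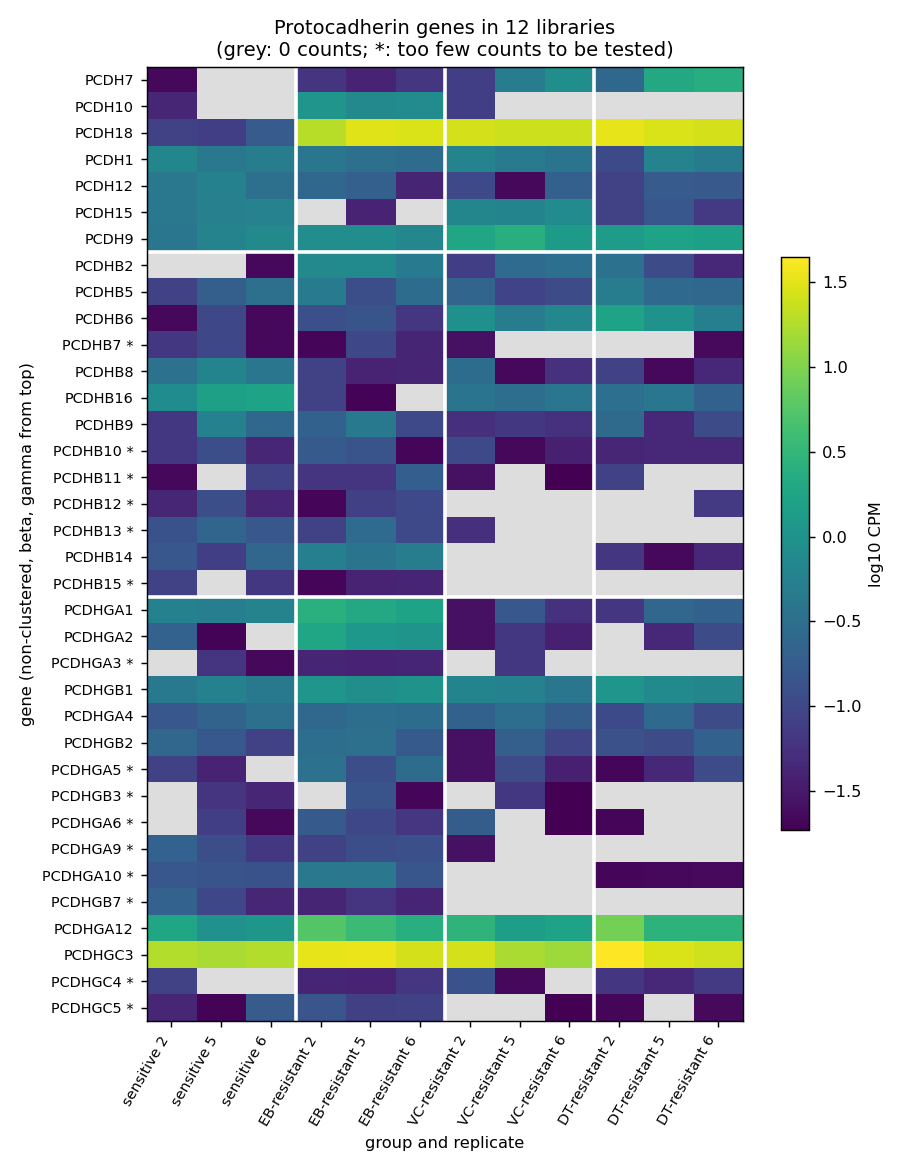
Heat map of log10 CPM of the 36 protocadherin genes (rows; non-clustered, beta and gamma from top to bottom) in the 12 libraries (columns; group and replicate number), with grey for 0 counts and an asterisk for genes with too few counts to test. PCDH18 was low in the 3 sensitive libraries and high in the 9 resistant ones, PCDHGC3 was high in all 12, and grey cells were most frequent in VC-resistant and DT-resistant libraries.

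**Figure D2:**
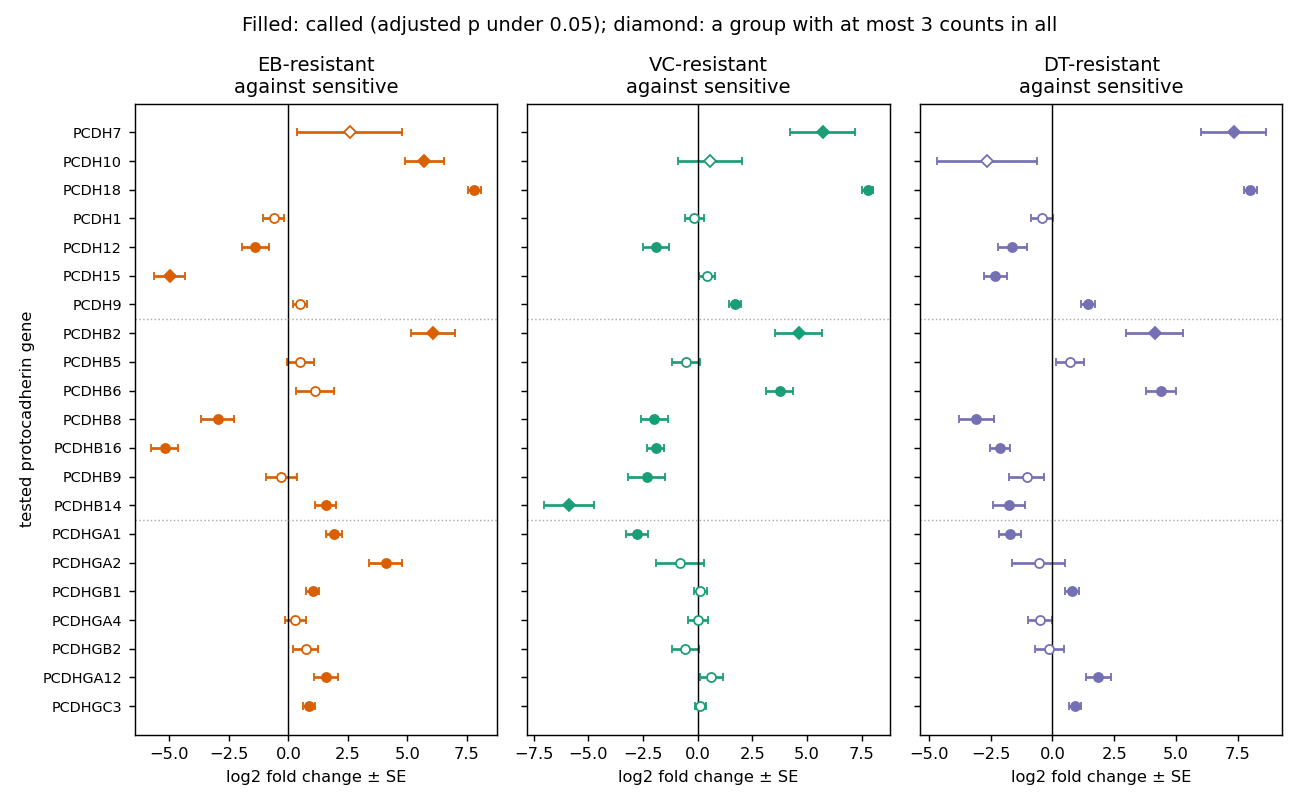
Log2 fold change with its standard error (x axis) of the 21 tested members (y axis) in each resistant group against sensitive cells; filled points passed the test and diamonds mark members with at most 3 counts in a whole group, whose fitted value is no bound. PCDH18 stood at 7.77 to 7.997 in all 3 panels, while PCDHGA1 and PCDHB14 lay to the right of 0 in EB-resistant cells and to the left in the other 2.

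PCDH18, a delta protocadherin whose tail is known to bind the adaptor DAB1, was nearly silent in sensitive cells and high in every resistant group. The gene (ENSG00000189184) lies at chr4:137518918-137532494 on the minus strand (GRCh38). Per kilobase of the deposited length, its level went from 0.0170 ± 0.00786 CPM in sensitive to 3.89 ± 0.868, 3.77 ± 0.186 and 4.40 ± 0.540 CPM in EB-, VC- and DT-resistant cells (SD, n = 3), beside 3.21 ± 0.184, 5.85 ± 0.796, 3.51 ± 1.20 and 6.04 ± 1.86 CPM for PCDHGC3 in the sensitive, EB-, VC- and DT-resistant groups. Over the exon bases not shared with the other gamma genes, PCDHGC3 stood at 5.37 ± 0.308, 9.77 ± 1.33, 5.87 ± 2.01 and 10.1 ± 3.11 CPM per kilobase, which turns its order against PCDH18 in VC-resistant cells. The PCDH18 level was 0.0870, 0.0794 and 0.174 CPM in sensitive libraries 2, 5 and 6 (4, 4 and 8 counts), and 19.4, 30.4 and 28.3 CPM in EB-resistant ones. It was 26.7, 24.6 and 24.4 CPM in VC-resistant and 33.5, 28.3 and 26.5 CPM in DT-resistant libraries. Every resistant library lay more than 100-fold above every sensitive one, and the 3 resistant groups overlapped. The log2 fold change against sensitive cells was 7.82 ± 0.26 (SE) in EB-resistant (adjusted p = 7.67e-12, edgeR), 7.77 ± 0.26 in VC-resistant (adjusted p = 1.21e-11, edgeR) and 7.997 ± 0.26 in DT-resistant cells (adjusted p = 6.50e-12, edgeR). No pair of resistant groups passed this test: the 95% interval of the difference was -0.27 to 0.36 for EB-resistant against VC-resistant, -0.49 to 0.13 for EB-resistant against DT-resistant and -0.53 to 0.09 for VC-resistant against DT-resistant cells. In the last pair PCDH18 was lower in the VC-resistant library of each replicate number (by 0.33, 0.20 and 0.12), and with the number as a block in those 6 libraries alone, a setting added after seeing the data, it passed (-0.21 ± 0.07, adjusted p = 0.0454, edgeR). In bulk RNA, fewer cells with a transcript and less transcript per cell cannot be told apart. The summed fibroblast markers, of which LUM gave most in VC-resistant and DT-resistant cells, were higher in the resistant groups too. The VC-resistant libraries had the lowest marker sums of the resistant groups (12.6 to 30.96 CPM) at a PCDH18 mean of 25.2 ± 1.24 CPM (SD, n = 3), beside 26.0 ± 5.80 and 29.4 ± 3.61 CPM in EB-resistant and DT-resistant cells. Their part in the result was not tested.

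PCDH7 and PCDH10 are delta protocadherins too; PCDH7 is known to bind the phosphatase PP1 and the protein SET, and PCDH10 the actin regulator NCKAP1. PCDH7 gave 1, 0 and 0 counts in sensitive libraries 2, 5 and 6, 3, 2 and 3 in EB-resistant, 3, 22 and 48 in VC-resistant, and 12, 92 and 104 in DT-resistant ones. It rose in VC-resistant and DT-resistant cells, with ratios of the group's summed counts, scaled by its summed library sizes, to those of sensitive cells of 75.8 (95% counting interval 13.2 to 3032; adjusted p = 0.00615, edgeR) and 218 (38.7 to 8650; adjusted p = 4.13e-04, edgeR). Its EB-resistant libraries, at 0.0407 to 0.0630 CPM, were below the DT-resistant ones (log2 fold change -4.75 ± 0.97, adjusted p = 0.00115, edgeR). Replicate 2 was the lowest PCDH7 library of both VC-resistant and DT-resistant cells. The lower level in EB-resistant than in VC-resistant cells (-3.13 ± 1.06, adjusted p = 0.0227, edgeR) did not pass without VC-resistant replicate 6 (adjusted p = 0.105) or without any 1 of the EB-resistant libraries (0.0589 to 0.0725).

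PCDH10 was present in EB-resistant cells, with 52, 36 and 38 counts, and close to absent elsewhere, with 2, 0 and 0 counts in sensitive, 3, 0 and 0 in VC-resistant and 0, 0 and 0 in DT-resistant libraries. The EB-resistant libraries did not overlap those of any other group. The ratio of scaled summed counts was 62.0 against sensitive cells (95% counting interval 16.8 to 517; adjusted p = 4.65e-05, edgeR) and 39.8 against VC-resistant cells (13.3 to 196; adjusted p = 7.23e-05, edgeR). Against DT-resistant cells it was at least 13.1-fold higher, with 3 counts per library as the floor (adjusted p = 2.75e-05, edgeR). For ratios against groups of 1 to 3 counts, the library that holds the counts sets the value: the fitted PCDH10 log2 fold change went from 5.71 to 8.35 without sensitive replicate 2, and that of PCDH7 in VC-resistant cells from 5.71 to 7.57 without sensitive replicate 2 and to 4.92 without VC-resistant replicate 6.

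The other delta members moved less. PCDH9, a long gene of chromosome 13, was named after its values were seen: it stood at 0.392, 0.595 and 0.718 CPM in sensitive, 0.855, 0.855 and 0.672 in EB-resistant, 1.84, 2.49 and 1.31 in VC-resistant and 1.383, 1.72 and 1.52 in DT-resistant libraries. The VC-resistant and DT-resistant libraries all lay above the sensitive and EB-resistant ones, and those 2 latter groups overlapped. It rose by 1.71 ± 0.28 in VC-resistant (adjusted p = 1.24e-04, edgeR) and by 1.43 ± 0.29 in DT-resistant cells (adjusted p = 5.32e-04, edgeR) on the log2 scale, and did not pass in EB-resistant cells (0.48 ± 0.30, adjusted p = 0.188, edgeR). PCDH1, best known from airway epithelium and likewise named after its values were seen, was at 5 to 30 counts in all libraries and passed the test in none of the 6 comparisons.

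PCDH15, which forms the tip links of inner ear hair cells together with CDH23, was low in EB-resistant and DT-resistant cells. It gave 19, 28 and 27 counts in sensitive and 25, 28 and 43 in VC-resistant libraries, but 0, 2 and 0 in EB-resistant and 4, 7 and 3 in DT-resistant ones. The first 2 groups lay wholly above the latter 2. The level in EB-resistant cells was lower than in sensitive cells by a ratio of scaled summed counts of 37.6 (95% counting interval 10.1 to 316; adjusted p = 1.05e-05, edgeR) and than in VC-resistant cells by a ratio of 50.6 (13.6 to 424; adjusted p = 3.66e-06, edgeR). In DT-resistant cells it fell by 2.30 ± 0.47 on the log2 scale against sensitive cells (adjusted p = 6.40e-04, edgeR). It was the single member called higher in VC-resistant than in DT-resistant cells (2.72 ± 0.46, adjusted p = 8.47e-04, edgeR). The difference between EB-resistant and DT-resistant cells (adjusted p = 0.0135, edgeR) rests on few counts and did not pass without EB-resistant replicate 2 or 6, or DT-resistant replicate 5 (adjusted p = 0.0501 to 0.0594).

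PCDH12, an adhesion protein of endothelium and trophoblast named here after its values were seen, gave 19, 29 and 15 counts in sensitive libraries, 12, 10 and 2 in EB-resistant, 4, 1 and 11 in VC-resistant and 4, 8 and 7 in DT-resistant ones. All resistant libraries lay below all sensitive ones. The log2 fold change was -1.40 ± 0.56 in EB-resistant (adjusted p = 0.0465, edgeR), -1.91 ± 0.60 in VC-resistant (adjusted p = 0.0139, edgeR) and -1.63 ± 0.59 in DT-resistant cells (adjusted p = 0.0257, edgeR). None of these calls stood without sensitive replicate 5 (adjusted p = 0.169, 0.0627 and 0.104), and the EB-resistant one was lost under 11 of 18 alternatives. The VC-resistant value was -2.80 without VC-resistant replicate 6, and without replicate 5 it did not pass (adjusted p = 0.0626). Of the endothelial markers, PECAM1 went the same way, from a mean of 0.489 CPM in sensitive to 0.00875 to 0.0418 CPM in the resistant groups, and VWF the other way, from 0.983 to 1.11, 2.90 and 6.02 CPM in EB-, VC- and DT-resistant cells; their part in the PCDH12 result was not tested.

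**Figure D3:**
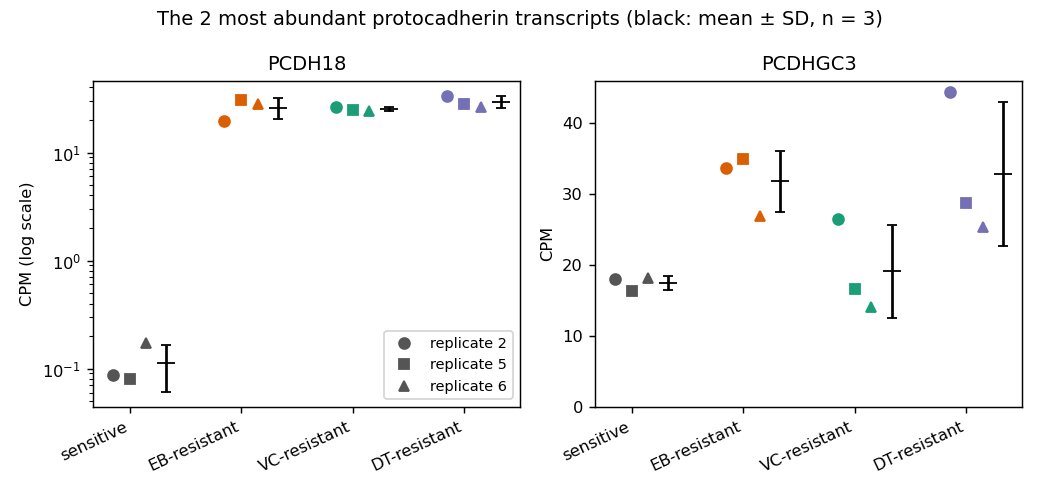
CPM of PCDH18 (left, log axis) and PCDHGC3 (right, linear axis) in each library by group, with the marker shape for the replicate number and black bars for mean ± SD (n = 3). PCDH18 rose from under 0.2 CPM to 19.4 to 33.5 CPM in all resistant libraries, while PCDHGC3 was about as high in VC-resistant as in sensitive libraries and replicate 2 was its highest library in VC-resistant and DT-resistant cells.

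The gamma cluster supplied most of the protocadherin counts of sensitive cells. Its 16 genes in the table summed to 20.9 ± 1.46 CPM (SD, n = 3) in sensitive cells. Among the resistant groups the sum was 41.8 ± 6.54 CPM for EB, 22.3 ± 7.42 for VC and 39.1 ± 13.4 for DT. Against sensitive cells, 5 of the 7 tested gamma genes rose and 0 fell in EB-resistant cells, 0 rose and 1 fell in VC-resistant cells, and 3 rose and 1 fell in DT-resistant cells; of all genes, 28.5% rose and 27.6% fell, 27.6% and 27.4%, and 29.8% and 29.3%, in that order. Replicate 2 had the highest gamma sum in both VC-resistant (30.7, against 19.7 and 16.6 CPM) and DT-resistant cells (54.5, against 33.1 and 29.7 CPM). Reads that fall wholly in the shared constant exons cannot be given to 1 gamma gene. PCDHGC4 had 0 to 5 counts per library where PCDHGC3 had 755 to 2083, so the counts were not shared out to every gene of the cluster, but how such reads were treated is not given in the sources used here. Whether the levels below rest only on variable exons and their junctions, or also on constant-exon reads given to 1 gene, cannot be told. Neighbouring gamma genes, whose models overlap, may share some reads.

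PCDHGC3, one of the C-type gamma isoforms at the end of the cluster, which is known to bind AXIN1 (ENSG00000240184, chr5:141475947-141512977, plus strand), was the dominant gamma gene in all 12 libraries. It stood at 17.98, 16.3 and 18.1 CPM in sensitive libraries 2, 5 and 6, 33.6, 34.9 and 26.8 in EB-resistant, 26.5, 16.6 and 14.1 in VC-resistant and 44.3, 28.8 and 25.3 in DT-resistant ones. EB-resistant and DT-resistant libraries lay above all sensitive ones, and the VC-resistant libraries overlapped the sensitive ones. The summed fibroblast markers were also highest in EB-resistant (132.6 to 167.0 CPM) and DT-resistant libraries (111.0 to 217.7 CPM). In DT-resistant cells LUM alone had a mean of 145 CPM. The sums were 12.6 to 30.96 CPM in VC-resistant and 2.44 to 3.29 CPM in sensitive libraries. The markers' part in the gamma results was not tested. The log2 fold change of PCDHGC3 against sensitive cells was 0.86 ± 0.24 in EB-resistant (adjusted p = 0.0100, edgeR) and 0.91 ± 0.24 in DT-resistant cells (adjusted p = 0.00712, edgeR). In VC-resistant cells it was 0.12 ± 0.24 (adjusted p = 0.694, edgeR), with a 95% interval of -0.41 to 0.66. EB-resistant cells were higher than VC-resistant cells by 0.74 ± 0.24 (adjusted p = 0.0212, edgeR), a call that was lost in 5 of 19 alternatives, among them those without EB-resistant replicate 2 or 5 and without VC-resistant replicate 5 or 6 (adjusted p = 0.0581 to 0.0850). The other C-type genes, PCDHGC4 and PCDHGC5, were too low to test.

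PCDHGA1 and PCDHGA2, which stand at the upstream end of the gamma cluster, were highest in EB-resistant cells. PCDHGA1 gave 26, 26 and 28 counts in sensitive, 126, 101 and 80 in EB-resistant, 1, 7 and 3 in VC-resistant and 3, 11 and 9 in DT-resistant libraries. The EB-resistant libraries were above, and the VC-resistant and DT-resistant ones below, all sensitive ones. It rose by 1.91 ± 0.34 in EB-resistant cells (adjusted p = 1.88e-04, edgeR), fell by 2.77 ± 0.50 in VC-resistant (adjusted p = 2.49e-04, edgeR) and fell by 1.71 ± 0.44 in DT-resistant cells (adjusted p = 0.00339, edgeR) on the log2 scale. The drop in VC-resistant cells was larger, -3.61 ± 0.59, without VC-resistant replicate 5. PCDHGA2 gave 10, 1 and 0 counts in sensitive, 90, 58 and 49 in EB-resistant, 1, 3 and 2 in VC-resistant and 0, 2 and 5 in DT-resistant libraries. Only its EB-resistant libraries stood apart. They were above sensitive cells by 4.09 ± 0.69 (adjusted p = 1.46e-04, edgeR), and by 6.71 without sensitive replicate 2, which held 10 of the 11 sensitive counts. Against VC-resistant cells the difference was 4.88 ± 0.77 (adjusted p = 7.28e-05, edgeR), and against DT-resistant cells 4.65 ± 0.75 (adjusted p = 9.52e-05, edgeR), with 5.81 without DT-resistant replicate 6 and 4.06 without DT-resistant replicate 2.

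PCDHGA12 and PCDHGB1, named after their values were seen, rose in the same resistant groups as PCDHGC3. PCDHGA12, the last A-type gene of the cluster, was at 1.85, 0.953 and 1.15 CPM in sensitive, 5.59, 3.77 and 2.52 in EB-resistant, 2.97, 1.47 and 1.68 in VC-resistant and 8.62, 2.80 and 2.81 in DT-resistant libraries. As with the cluster's sum, replicate 2 was the highest PCDHGA12 library in all 4 groups. It rose by 1.59 ± 0.51 in EB-resistant (adjusted p = 0.0195, edgeR) and by 1.85 ± 0.51 in DT-resistant cells (adjusted p = 0.00831, edgeR) on the log2 scale, and its change in VC-resistant cells was 0.62 ± 0.52 (adjusted p = 0.341, edgeR). Without DT-resistant replicate 2 the DT-resistant value was 1.10 (adjusted p = 0.0249), and the EB-resistant call was lost without EB-resistant replicate 2 or without sensitive replicate 5 or 6 (adjusted p = 0.0681 to 0.0731). PCDHGB1 gave 20, 29 and 20 counts in sensitive, 52, 43 and 47 in EB-resistant, 24, 26 and 21 in VC-resistant and 51, 35 and 28 in DT-resistant libraries. It rose by 1.02 ± 0.29 in EB-resistant (adjusted p = 0.00682, edgeR) and by 0.79 ± 0.29 in DT-resistant cells (adjusted p = 0.0299, edgeR), the latter call being lost without DT-resistant replicate 2 (adjusted p = 0.156) and without sensitive replicate 2 or 6 (0.0793 and 0.0850). PCDHGA4 and PCDHGB2, the remaining tested gamma genes, gave 1 to 16 counts per library and passed in no comparison.

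Per kilobase of the deposited gene length, PCDHGC3 made up 82.8 ± 2.43% of the gamma cluster in sensitive cells and 76.1 ± 3.51%, 84.0 ± 0.966% and 83.3 ± 3.17% in EB-, VC- and DT-resistant cells (SD, n = 3). PCDHGA12 came next in the resistant groups with 9.94% to 12.3%. The leading gamma gene was thus the same in all 12 libraries.

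**Figure D4:**
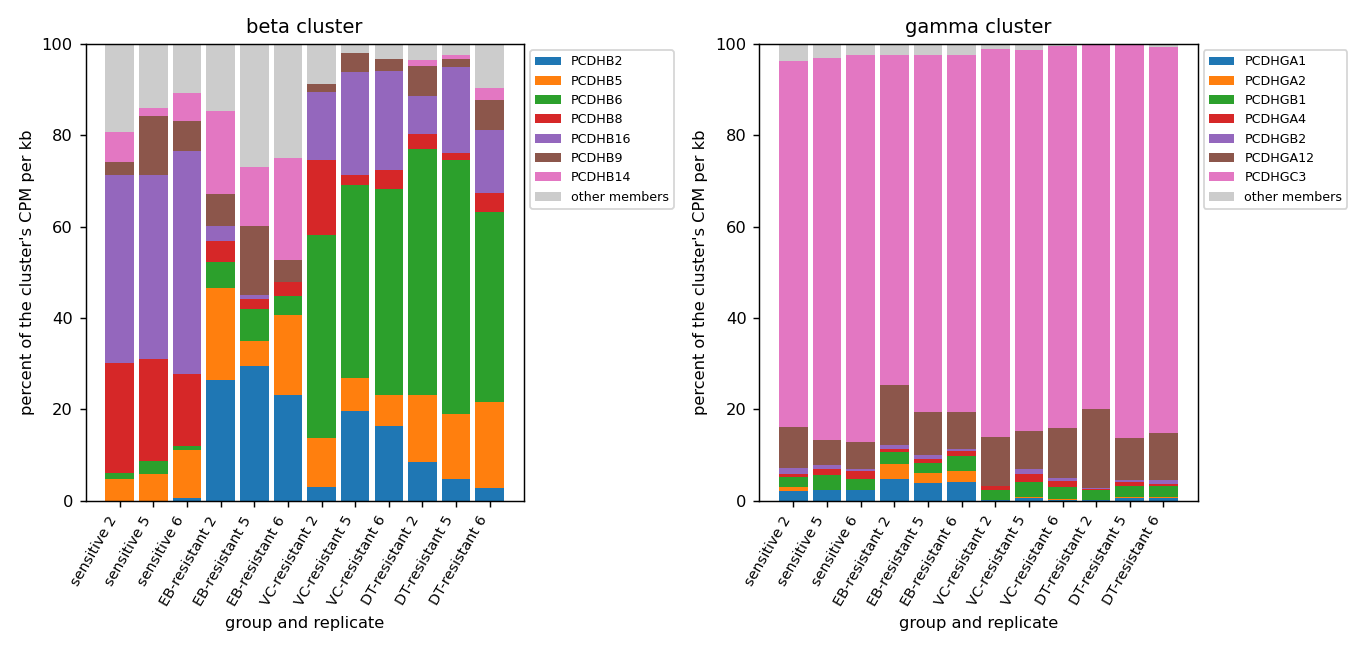
Share of each tested gene in the CPM per kilobase of the beta cluster (left) and the gamma cluster (right) in each of the 12 libraries, with untested members in grey. The leading beta gene was PCDHB16 in the sensitive, PCDHB2 in the EB-resistant and PCDHB6 in the VC-resistant and DT-resistant libraries, while PCDHGC3 took over 72% of the gamma cluster in every library.

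The beta genes were rare transcripts in all groups, with a sum of 3.00 ± 0.954 CPM (SD, n = 3) in sensitive cells and 2.39 ± 0.376, 1.70 ± 0.438 and 2.23 ± 1.05 CPM in EB-, VC- and DT-resistant cells. The genes behind that sum differed from group to group. PCDHB16 gave 43.5 ± 4.75% of the cluster's CPM per kilobase in sensitive cells, PCDHB2 gave 26.4 ± 3.18% in EB-resistant cells, and PCDHB6 gave 43.9 ± 1.49% and 50.4 ± 7.70% in VC-resistant and DT-resistant cells. Against sensitive cells, 2 of the 7 tested beta genes rose and 2 fell in EB-resistant cells, 2 rose and 4 fell in VC-resistant cells, and 2 rose and 3 fell in DT-resistant cells. The same shares of all genes apply (28.5% and 27.6%, 27.6% and 27.4%, 29.8% and 29.3%), and 2 of 7 is near them. Beta genes are near copies of each other, so reads shared between them make each value uncertain.

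PCDHB2 and PCDHB6 were the beta genes that rose from the lowest levels. PCDHB2 gave 0, 0 and 1 counts in sensitive libraries 2, 5 and 6, 35, 38 and 22 in EB-resistant, 3, 13 and 17 in VC-resistant and 16, 5 and 2 in DT-resistant ones. All resistant libraries lay above the sensitive ones. The ratio of scaled summed counts to sensitive cells was 93.4 in EB-resistant (95% counting interval 16.4 to 3729; adjusted p = 4.82e-05, edgeR), 34.2 in VC-resistant (5.73 to 1393; adjusted p = 0.00207, edgeR) and 24.1 in DT-resistant cells (3.91 to 993; adjusted p = 0.00591, edgeR). With replicate 2 of every group left out, a setting chosen after seeing the data, the DT-resistant call was lost (adjusted p = 0.0831). PCDHB6 gave 1, 5 and 1 counts in sensitive, 6, 7 and 3 in EB-resistant, 35, 22 and 37 in VC-resistant and 80, 45 and 23 in DT-resistant libraries. VC-resistant and DT-resistant libraries lay wholly above the others. It rose by 3.75 ± 0.62 in VC-resistant (adjusted p = 1.26e-04, edgeR) and by 4.39 ± 0.60 in DT-resistant cells (adjusted p = 1.73e-05, edgeR); without sensitive replicate 5, which held 5 of the 7 sensitive counts, these were 4.84 and 5.47. In EB-resistant cells it did not pass (1.13 ± 0.80, adjusted p = 0.245, edgeR).

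PCDHB16 and PCDHB8, neighbours on the chromosome, fell in all 3 resistant groups. PCDHB16 gave 38, 79 and 78 counts in sensitive, 4, 1 and 0 in EB-resistant, 14, 14 and 21 in VC-resistant and 15, 18 and 9 in DT-resistant libraries. Its EB-resistant libraries were the lowest and its sensitive ones the highest, without overlap. The fall was by 5.20 ± 0.57 in EB-resistant (adjusted p = 1.57e-06, edgeR), by 1.93 ± 0.40 in VC-resistant (adjusted p = 8.14e-04, edgeR) and by 2.14 ± 0.41 in DT-resistant cells (adjusted p = 3.61e-04, edgeR) on the log2 scale; the first was -6.70 without EB-resistant replicate 2. PCDHB8 gave 16, 31 and 18 counts in sensitive, 4, 2 and 2 in EB-resistant, 11, 1 and 3 in VC-resistant and 4, 1 and 2 in DT-resistant libraries. No resistant library reached the lowest sensitive one. It fell by 2.98 ± 0.68 in EB-resistant (adjusted p = 0.00157, edgeR), by 1.98 ± 0.61 in VC-resistant (adjusted p = 0.0128, edgeR) and by 3.07 ± 0.70 in DT-resistant cells (adjusted p = 0.00146, edgeR). The VC-resistant value was -3.41 without VC-resistant replicate 2, and the call was lost without VC-resistant replicate 5 or 6 or sensitive replicate 5 (adjusted p = 0.0645 to 0.0700).

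PCDHB14 split the resistant groups. It gave 7, 4 and 11 counts in sensitive, 26, 18 and 23 in EB-resistant, 0, 0 and 0 in VC-resistant and 3, 1 and 2 in DT-resistant libraries. The 4 groups did not overlap. It rose by 1.56 ± 0.46 in EB-resistant cells (adjusted p = 0.0107, edgeR), a call that was lost without sensitive replicate 5 (adjusted p = 0.0601). In VC-resistant cells it was at least 2.35-fold lower than in sensitive cells, with 3 counts per library as the floor (adjusted p = 7.47e-04, edgeR). In DT-resistant cells it fell by 1.76 ± 0.66 on the log2 scale (adjusted p = 0.0349, edgeR), a call that DESeq2 did not make (adjusted p = 0.0563) and that was lost without DT-resistant replicate 5 or 6 or without sensitive replicate 2 or 6 (0.0620 to 0.157). PCDHB9 gave 3, 29 and 12 counts in sensitive and 2, 3 and 3 in VC-resistant libraries, which overlapped. It fell by 2.33 ± 0.84 in VC-resistant cells (adjusted p = 0.0279, edgeR) and this was -1.44 without sensitive replicate 5 (adjusted p = 0.212); it was also lost without any 1 of the VC-resistant libraries (0.0642 to 0.0769). PCDHB5, at 4 to 23 counts per library, passed in no comparison.

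The remaining 15 members, 6 beta and 9 gamma genes, had too few counts to test. They gave 12 to 70 counts each over all 12 libraries, at most 20 in 1 library, and their group means did not exceed 0.324 CPM. Each of the 36 members had at least 1 count in sensitive and in EB-resistant cells. In VC-resistant cells 5 members were at 0 in all 3 libraries (PCDHB12, PCDHB14, PCDHB15, PCDHGA10 and PCDHGB7), and in DT-resistant cells 7 were (PCDH10, PCDHB13, PCDHB15, PCDHGA3, PCDHGA9, PCDHGB3 and PCDHGB7). No share of all genes at 0 stands beside these numbers, so they do not single out the protocadherins. A count of 0 allows up to 3 counts, or 0.0560 to 0.0787 CPM per library, for counting error only. Of the untested members, PCDHGA10 is named after its values were seen. Its levels were 0.152, 0.139 and 0.131 CPM in sensitive and 0.417, 0.407 and 0.147 CPM in EB-resistant libraries. They were 0 in VC-resistant and 0.0213 to 0.0230 CPM in DT-resistant ones.

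Between the resistant groups, EB-resistant cells differed from each of the others at 12 and 10 of the 21 tested members, where 58.4% and 57.2% of all genes differed. Against VC-resistant cells 7 members were higher and 5 lower, where 29.6% and 28.8% of all genes were. Against DT-resistant cells 5 were higher and 5 lower, where 28.4% and 28.8% of all genes were. The gamma genes among these calls were all higher in EB-resistant cells, 4 of 7 and 2 of 7 tested. PCDHGA1 was higher by 4.68 ± 0.45 than in VC-resistant cells (adjusted p = 5.02e-07, edgeR; 5.52 without VC-resistant replicate 5) and by 3.62 ± 0.40 than in DT-resistant cells (adjusted p = 2.23e-06, edgeR). PCDHGB1 was higher by 0.90 ± 0.29 than in VC-resistant cells (adjusted p = 0.0138, edgeR), a call lost without VC-resistant replicate 6 (adjusted p = 0.0774). PCDHB14 was at least 6.93-fold higher than in VC-resistant cells (adjusted p = 1.89e-05, edgeR) and higher by 3.32 ± 0.57 on the log2 scale than in DT-resistant cells (adjusted p = 2.54e-04, edgeR).

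Members lower in EB-resistant cells than in both other lines were PCDH7, PCDH9, PCDH15, PCDHB6 and PCDHB16. For PCDHB6 the log2 difference was -2.62 ± 0.54 from VC-resistant (adjusted p = 6.84e-04, edgeR) and -3.26 ± 0.52 from DT-resistant cells (adjusted p = 8.37e-05, edgeR). For PCDH9 it was -1.23 ± 0.27 (adjusted p = 0.00120, edgeR) and -0.95 ± 0.28 (adjusted p = 0.00812, edgeR). PCDHB16 differed by -3.27 ± 0.65 (adjusted p = 5.04e-04, edgeR) and -3.06 ± 0.66 (adjusted p = 0.00107, edgeR), and by -4.79 and -4.57 without EB-resistant replicate 2. PCDHB2 was higher in EB-resistant than in DT-resistant cells by 1.95 ± 0.57 (adjusted p = 0.00846, edgeR; 3.01 without DT-resistant replicate 2) and than in VC-resistant cells by 1.47 ± 0.54 (adjusted p = 0.0289, edgeR). That last call was lost without EB-resistant replicate 2 or 5 and without VC-resistant replicate 2 or 5 (adjusted p = 0.0505 to 0.104).

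VC-resistant and DT-resistant cells were the closest pair: 1 of the 21 members was higher and 1 lower, where 7.08% and 8.71% of all genes were and 15.8% differed in either direction. The lower one was PCDHGC3, at -0.79 ± 0.24 (adjusted p = 0.0492, edgeR), although its libraries overlapped. Libraries of these 2 groups with the same number deviated together, and replicate 2 was the highest library in both for PCDHGC3, PCDHGA12 and PCDHGB1 and the lowest for PCDH7. Within the same number, PCDHGC3 was lower in VC-resistant cells by 0.74, 0.79 and 0.85 on the log2 scale in replicates 2, 5 and 6, PCDHGA12 by 1.54, 0.92 and 0.74, and PCDH7 by 1.70, 2.07 and 1.42. With the replicate number as a block, 3 members were called lower: PCDHGC3 (adjusted p = 0.00424), PCDHGA12 (-1.11 ± 0.22, adjusted p = 0.00200; without the block -1.23 ± 0.49, adjusted p = 0.121) and PCDH7 (-1.66 ± 0.43, adjusted p = 0.0131; without the block -1.61 ± 0.71, adjusted p = 0.155), all from edgeR. Under that block 1 of the 21 members was higher and 3 lower, where 20.5% of all genes differed in either direction. The members' share was near that. The PCDHGC3 call was lost in 13 of the 20 alternatives, none of them with the block. Leaving out DT-resistant replicate 2 gave -0.51 for PCDHGC3 (adjusted p = 0.176, edgeR).

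**Figure D5:**
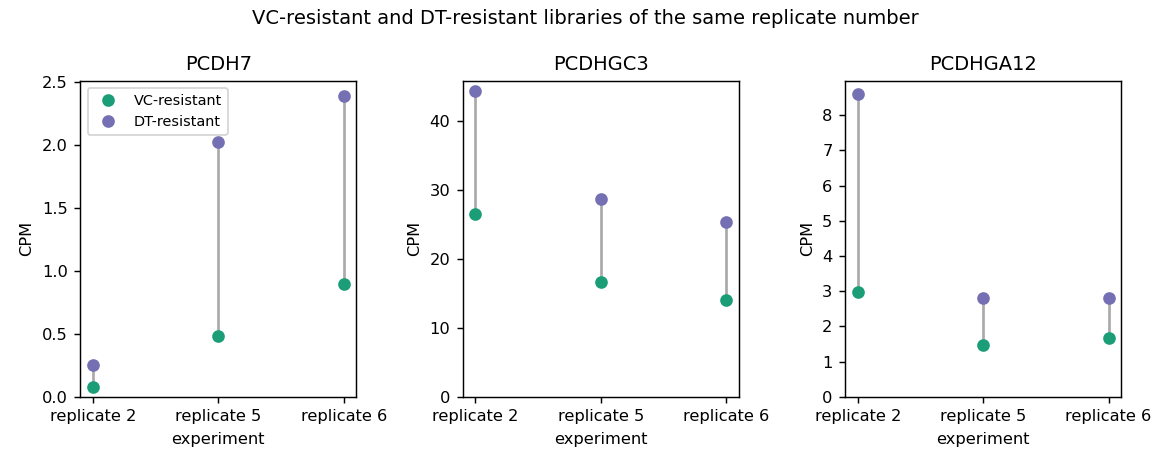
CPM of PCDH7, PCDHGC3 and PCDHGA12 in VC-resistant and DT-resistant libraries (y axis), joined by a line where they share a replicate number (x axis). In each of the 3 pairs the DT-resistant library was above the VC-resistant one for all 3 genes, and replicate 2 was the lowest pair for PCDH7 and the highest for the other 2 genes.

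Lists of genes tied to protocadherin function were read in the same way, by counts beside the shares of all genes. Those shares were 28.5% higher and 27.6% lower in EB-resistant, 27.6% and 27.4% in VC-resistant, and 29.8% and 29.3% in DT-resistant cells. Among 19 regulators of chromatin at the clusters, 3 rose and 9 fell in EB-resistant, 3 rose and 9 fell in VC-resistant, and 3 rose and 8 fell in DT-resistant cells, with median log2 fold changes of -0.22, -0.21 and -0.14. The cohesin ring subunit SMC3 fell from 234.3 ± 11.9 CPM (SD, n = 3) to 129.6 ± 9.10, 171.0 ± 5.36 and 146.5 ± 6.52 in EB-, VC- and DT-resistant cells (adjusted p = 7.38e-08, 5.70e-05 and 9.76e-07, edgeR). The maintenance DNA methyltransferase DNMT1 fell from 262.9 ± 24.1 CPM to 139.5 ± 13.9, 155.0 ± 11.9 and 124.4 ± 16.03 in EB-, VC- and DT-resistant cells (adjusted p = 2.21e-06, 1.82e-05 and 4.90e-07, edgeR). In the other direction, the cohesin subunit STAG2 rose from 177.7 ± 19.7 CPM to 247.2 ± 8.41, 300.1 ± 18.5 and 293.6 ± 15.3 in EB-, VC- and DT-resistant cells (adjusted p = 1.19e-04, 1.97e-06 and 2.27e-06, edgeR), and the histone methyltransferase SETDB1 rose from 28.6 ± 1.32 to 39.7 ± 0.890, 39.0 ± 5.08 and 42.6 ± 4.26 CPM (adjusted p = 8.10e-04, 0.00139 and 1.55e-04, edgeR).

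Of 24 binding partners and processing enzymes of protocadherins, 23 were tested: 5 rose and 7 fell in EB-resistant, 7 rose and 6 fell in VC-resistant, and 9 rose and 8 fell in DT-resistant cells, with medians of -0.06, 0.02 and -0.01. PTK2, a focal adhesion kinase that binds the tails of clustered protocadherins, rose from 92.0 ± 4.29 to 135.3 ± 3.38 and 136.6 ± 4.93 CPM in VC-resistant and DT-resistant cells (adjusted p = 2.54e-06 and 1.51e-06, edgeR); in EB-resistant cells it was at 88.3 ± 0.955 (adjusted p = 0.434). CYFIP2, a subunit of the actin-regulating WAVE complex, fell from 15.1 ± 1.17 to 9.41 ± 1.91 CPM in EB-resistant and 3.94 ± 0.142 CPM in DT-resistant cells (adjusted p = 4.38e-04 and 3.44e-08, edgeR); in VC-resistant cells it was at 15.4 ± 1.09 (adjusted p = 0.873). AXIN1, a partner of PCDHGC3 in Wnt signalling, rose from 35.4 ± 4.52 to 64.7 ± 0.854 and 51.1 ± 5.94 CPM in VC-resistant and DT-resistant cells (adjusted p = 3.32e-06 and 2.79e-04, edgeR); in EB-resistant cells it was at 32.7 ± 0.819 (adjusted p = 0.324).

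Of 20 other large cadherins, 16 were in the table and 12 were tested: 6 rose and 1 fell in EB-resistant, 2 rose and 2 fell in VC-resistant, and 6 rose and 2 fell in DT-resistant cells, with medians of 0.30, -0.03 and 0.23. FAT4, a receptor of planar polarity, rose from 12.8 ± 1.40 to 77.2 ± 2.19, 16.8 ± 1.01 and 36.2 ± 2.80 CPM in EB-, VC- and DT-resistant cells (adjusted p = 2.14e-11, 0.00216 and 7.45e-09, edgeR). FAT3 rose from 1.48 ± 0.431 to 4.98 ± 1.36, 7.58 ± 1.31 and 8.08 ± 1.00 CPM (adjusted p = 1.27e-05, 9.97e-07 and 4.81e-07, edgeR). FAT4 and FAT3 rose in every resistant group, against the same sensitive libraries. They do not stand for the whole list. They were the only 2 of the 12 tested cadherins that rose in VC-resistant cells, where 2 others fell and the median was -0.03. The cadherins that fell are counted above but not named. A link of FAT4 or FAT3 to PCDH18 was not tested. The non-protocadherin neighbours of the clusters on chromosome 5 were counted too, and of 26 listed, 23 were tested. Of these, 12 rose and 2 fell in EB-resistant, 16 rose and 1 fell in VC-resistant, and 15 rose and 1 fell in DT-resistant cells. The medians were 0.30, 0.46 and 0.38. Of all genes, 28.5% rose and 27.6% fell, 27.6% and 27.4%, and 29.8% and 29.3%, in that order. The neighbours thus rose in larger and fell in smaller shares than all genes. Their part in the results of the clustered genes was not tested. RELL2, a receptor-like gene on that stretch, rose from 2.36 ± 0.0713 to 3.92 ± 0.179, 12.95 ± 1.06 and 12.9 ± 1.08 CPM in EB-, VC- and DT-resistant cells (adjusted p = 1.54e-04, 1.15e-09 and 8.70e-10, edgeR).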

How the data were processed

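RNA of 12 WM1366 libraries in 4 groups of 3 was measured by strand-specific, paired-end sequencing. Per the submitters' processing notes, bcl2fastq 2.20.0, STAR 2.7.10b with hg38, featureCounts 2.0.1 and DESeq2 1.38.3 were used (strand setting, annotation release and drug doses: not given in the sources used here). The deposited gene table holds raw counts; the table of normalised values was not used. No 2 libraries of the same group agreed within sampling noise.

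Counts were filtered with filterByExpr, scaled by TMM and fitted with edgeR 4.0.16 (R 4.3.3, robust, 8 residual degrees of freedom; 17114 of 23497 genes). The quasi-likelihood F-test was run for 6 comparisons, with Benjamini-Hochberg adjustment over all genes tested and a threshold of 0.05. DESeq2 1.42.0 was an alternative, beside other scaling and filters, 6 libraries only, a replicate block and each library left out. The code was tested on simulated data. Intervals are 95%; counting intervals and floors (3 counts per library) cover counting error only. With 3 against 3, an exact permutation test cannot go below 0.1.

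Members with a mean of at least 5 CPM in a group, or among the 3 highest or lowest called fold changes of a comparison, were named by rule, and up to 3 called genes per direction from the other lists. Members and lists were chosen with earlier results of these data known. Deviations of same-numbered VC-resistant and DT-resistant libraries correlated at 0.337, 0.151 and 0.195, all over 0.1, so the data pair those groups by replicate number; no other pair of groups met that limit in all 3 numbers.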

Additional observations from a re-analysis of the deposited data

Results flagged for a closer look

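Effects of opposite direction in 2 resistant groups against the same sensitive libraries, with a direct test of the difference between those groups, were found for 2 genes. PCDHGA1 rose by 1.91 on the log2 scale in EB-resistant cells and fell by 2.77 in VC-resistant cells, a difference of 4.68 (adjusted p = 5.02e-07, edgeR), and it fell by 1.71 in DT-resistant cells, a difference of 3.62 from EB-resistant cells (adjusted p = 2.23e-06, edgeR). PCDHB14 had a fitted change of 1.56 in EB-resistant and -5.88 in VC-resistant cells, a difference of 7.44 (adjusted p = 1.89e-05, edgeR); the VC-resistant libraries were at 0 counts, so the fitted values of that group are no bounds. In DT-resistant cells PCDHB14 changed by -1.76, a difference of 3.32 from EB-resistant cells (adjusted p = 2.54e-04, edgeR). The 4 differences passed in every alternative that tested these genes. Against sensitive cells the PCDHB14 calls were less firm. The EB-resistant rise was lost in 2 of 18 alternatives, the DT-resistant fall in 6 of 17 and the VC-resistant fall in 0 of 17.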

How the results depend on the processing

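Of 62 calls of a tested member in a comparison, 46 held under all alternatives that still tested the gene. A further 16 were lost under at least 1 alternative and 0 were reversed. The stricter filter (at least 1 CPM in at least 3 libraries) left 7 members to test. Against sensitive cells, 6 were higher and 0 lower in EB-resistant and 2 higher and 1 lower in VC-resistant cells. In DT-resistant cells 5 were higher and 1 lower. Of all genes, 62.5%, 61.6% and 65.4% were called in either direction in these comparisons. EB-resistant had 4 higher and 1 lower against VC-resistant cells (64.8% of all genes called). Against DT-resistant cells it had 2 higher and 1 lower (63.3% of all genes called). VC-resistant had 0 higher and 1 lower against DT-resistant cells (19.2% of all genes called). With no filter, 36 members were tested. Against sensitive cells, 8 were higher and 10 lower in DT-resistant cells, and 5 higher and 11 lower in VC-resistant cells. Of all genes, 44.7% and 40.9% were called in either direction, in that order. EB-resistant cells had 14 higher and 5 lower against VC-resistant cells, and 10 higher and 5 lower against DT-resistant cells. Of all genes, 44.3% and 43.3% were called in either direction. VC-resistant cells had 1 higher and 0 lower against DT-resistant cells (10.8% of all genes called in either direction). With only the 6 libraries compared, EB-resistant had 5 higher and 3 lower against DT-resistant cells (16 members tested). VC-resistant had 3 higher and 4 lower against sensitive, and 1 higher and 0 lower against DT-resistant cells (12 tested in each). Of all genes, 58.3%, 55.7% and 12.2% were called in either direction there, in that order. RLE scaling also gave 1 higher and 0 lower in the last comparison (15.7% of all genes called). The replicate block gave 1 higher and 3 lower there, as did leaving out replicate 2 of every group. The block within those 6 libraries gave 1 higher and 4 lower. Of all genes, 20.5%, 21.5% and 28.2% were called in either direction in these fits. The last 2 settings were added after seeing the data. For the other pairs of groups, whose libraries share only a number, the block moved no count by over 1.5 times, ended 1 call (PCDH12 in EB-resistant against sensitive cells) and added 2 of PCDHGA12 (higher in VC-resistant than in sensitive and in EB-resistant than in VC-resistant cells).

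Leaving out 1 library gave 8 to 10 higher and 3 to 4 lower for EB-resistant, 5 to 5 higher and 4 to 8 lower for VC-resistant and 7 to 8 higher and 6 to 8 lower for DT-resistant against sensitive cells. It gave 6 to 12 higher and 4 to 5 lower for EB-resistant against VC-resistant, 6 to 8 higher and 4 to 5 lower for EB-resistant against DT-resistant, and 1 to 1 higher and 0 to 1 lower for VC-resistant against DT-resistant cells. Of all genes, 48.7% to 57.3%, 47.3% to 55.9% and 51.7% to 59.1% were called in these fits for EB-, VC- and DT-resistant against sensitive cells. For the pairs of resistant groups, in the order above, the shares were 51.4% to 59.8%, 49.9% to 57.3% and 9.78% to 16.4%. With a library left out the filter keeps more members, 22 to 24. Most tested members gave under 100 counts per library, which limits the precision of their values.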
